A study of Saccharomyces pastorianus with 12 samples.

Results

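Of 11277 gene copies with readable counts in 2 lager yeast strains, 225 (2.00%) had essentially no reads in the strain SpIB1 and were read in every library of the strain SpIB2. Members were chosen by their read counts in these same libraries: a copy entered this group when it had at most 3 reads summed over the 6 SpIB1 libraries and a mean of at least 5 CPM (a read count divided by the total of its library, on a fixed scale) over the 6 SpIB2 libraries. The strain difference of these 225 member copies is therefore the choice itself and is described here without a test. What the choice did not use is tested: the second copy of the same gene (the partner copy) in both strains, and changes between days within SpIB2. These changes are those of the member copies and of the balance between the copies of a pair. The mirrored choice, copies unread in SpIB2 and read in SpIB1, found 0 copies.

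The libraries come from 2 strains of Saccharomyces pastorianus, SpIB2 and SpIB1, sampled on day 5 and on day 2 of a lager fermentation in standard wort. The series asks which genes lie behind the differing use of maltose and maltotriose by these strains. SpIB2 on day 5, SpIB2 on day 2, SpIB1 on day 5 and SpIB1 on day 2 each have 3 libraries, 12 in all. Per the labels, all groups shared the wort, a temperature of 16 °C and RNA extraction with hot phenol, and the labels give no mutation or treatment that separates them. Whether replicates came from separate fermentations is not stated in the labels. The spread behind each p-value is that between these libraries, and it may be technical.

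Saccharomyces pastorianus is a hybrid of Saccharomyces cerevisiae and Saccharomyces eubayanus, and most of its genes exist as copies from both parents. Its chromosome sets are uneven: lager strains are known to differ in the number of copies of whole chromosomes and of chromosome stretches, and stretches of one parent can be replaced by those of the other. In the deposited tables most genes therefore appear as a symbol with a number behind it, such as HAP4_1 and HAP4_2. The files do not say which number belongs to which parent, and the number need not mark the same parent on different chromosomes.

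The libraries held 5133175 to 7922547 reads, so that 3 reads correspond to 0.379 to 0.584 CPM in a single library. Over the 6 SpIB1 libraries together, 3 reads correspond to 0.0732 CPM, and such limits cover counting error only. Levels below are CPM scaled by TMM, a correction of library totals for composition. The TMM factors ran from 0.509 in SpIB2 day 5 replicate 1 to 1.35. That library and SpIB2 day 2 replicate 3 stood apart from their replicates (Pearson r of log2 CPM from 0.897 to 0.922, against 0.951 and 0.970 for the remaining pairs of SpIB2), so values of named copies that move by over 1.5 times without 1 or both of them are given both ways.

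All 225 member copies had reads in each of the 6 SpIB2 libraries, where they took 1.56 to 2.35% of all reads. In SpIB1, 163 of them had 0 reads over the 6 libraries, 37 had 1 read, 18 had 2 and 7 had 3. Single SpIB1 libraries held reads of 7 to 24 member copies. Summed over the strain, the member copies had 665996 reads in SpIB2 and 94 in SpIB1.

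**Figure D1:**
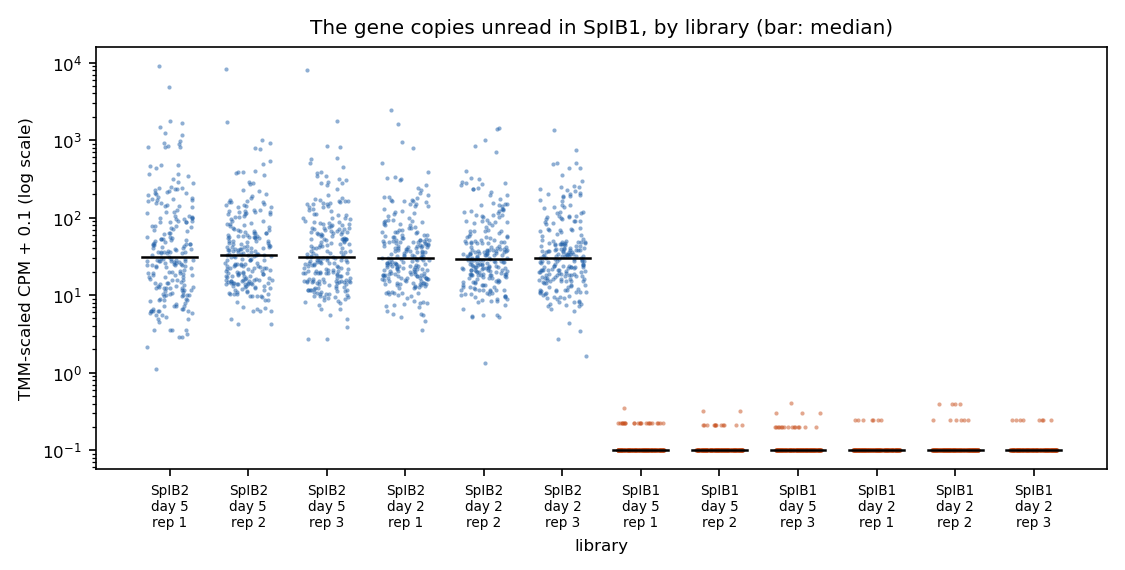
TMM-scaled CPM plus 0.1 (log scale) of the 225 member copies in each of the 12 libraries, with SpIB2 on the left; each point is a copy and the bar is the median. The SpIB2 medians lie between 29.2 and 33.3 CPM, and every SpIB1 median is 0.

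In SpIB2 the members covered a wide range of levels. Their median level was 31.0 to 33.3 CPM in the day 5 libraries and 29.2 to 30.3 CPM in the day 2 libraries of SpIB2, and between 35 and 56 of them exceeded 100 CPM in a given SpIB2 library. Just inside the floor of 5 CPM stood GRS66_003487 (5.51 CPM) and RPC25_2 (5.56 CPM, unscaled means over SpIB2), and just outside it stood GRS66_004596 (4.78 CPM) and BIO3_1 (4.73 CPM), both with 0 reads in SpIB1. Just inside the limit of 3 reads stood TOR2_2 and RSM19_1 with 3 reads each. Just outside it stood RRN3_2 with 4 reads and ARE2_1 with 5, and ARE2_1, a copy of a sterol acyltransferase gene, averaged 792 CPM in SpIB2. In all, 20 copies lay between 1 and 5 CPM and 13 copies had 4 to 10 reads in SpIB1.

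By gene name the members were mixed. Of the 225 copies, 187 carry a gene symbol (185 symbols) and 38 carry a locus tag only. Lists of genes for maltose and maltotriose use, glycolysis, the respiratory chain, the sterol branch and flocculation held 0 members among 40, 46, 60, 35 and 6 copies, beside members being 2.00% of all copies, so nothing is read from these zeros. The other lists held MVD1_1 (mevalonate pathway), SDH1_2 and SDH3_2 (succinate dehydrogenase), HAP4_2 (the HAP activator complex), APE1_2 (vacuolar hydrolases), SNF3_2 (hexose transport and sensing), MDH1_2 (the tricarboxylic acid cycle) and FRE4_2 (iron uptake).

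By tag number or by the gene order of Saccharomyces cerevisiae, most members lay near other members. Of the 38 members with a locus tag only, 37 fell in 3 blocks of nearby tag numbers. The blocks run from GRS66_004554 to GRS66_004605 (11 members among 16 tag-only copies), from GRS66_006506 to GRS66_006527 (4 among 6) and from GRS66_008865 to GRS66_009026 (22 among 32). Inside these blocks 51 of 54 tag-only copies had at most 3 reads in SpIB1, against 332 of 2013 over all tag-only copies, the blocks included. The blocks start and end at members, and 37 of the 54 are members with at most 3 reads by the choice, so these counts are a description and no support. The 3 exceptions had 4, 6 and 507 reads.

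The members with a symbol fell in 4 runs when their symbols were set in the gene order of Saccharomyces cerevisiae. That order was written down from general knowledge after the members were known and covers 4 chromosome arms only, so the runs are a description. Their ends were set at the first and last member. No coordinates of the Saccharomyces pastorianus genome were used, and its gene order can differ. The longest run lies on the left arm of chromosome XI, from JEN1 to DCW1, with 119 members. A second run lies on the right arm of chromosome XIV, from TIM23 to COS10, with 34 member symbols. The third lies on the left arm of chromosome IV, from TIM22 to PPH22, with 23 members, and the fourth on the right arm of chromosome XII, from YEH2 to SED5, with 4 members. Together the runs hold 180 of the 185 member symbols, and the other 5 (CIS3, MHT1, MMP1, PHR1 and YPS6) are not on these lists.

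Within a run nearly every gene with a pair of copies had one that was unread or almost unread in SpIB1. Among the symbols with 2 copies, 185 of 190 inside the runs had a copy that was a member or had at most 20 reads in SpIB1, against 1 of 94 on the same arms outside them. That one was AAT2_2, directly beside the run on chromosome XII, with 1804 reads in SpIB2 and 5 in SpIB1. Since the ends of the runs and the members were both set by SpIB1 reads, the contrast between inside and outside is largely fixed by the choice. VMA1_2, directly beside the run on chromosome IV and named after its values were seen, had 17268 reads in SpIB2 and 69 in SpIB1. On chromosome XIV all 33 such symbols inside the run had one, on chromosome IV all 23, on chromosome XII all 7 and on chromosome XI 122 of 127. The runs on chromosomes IV and XII have read genes on both sides, so they are interior stretches in this order.

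**Figure D2:**
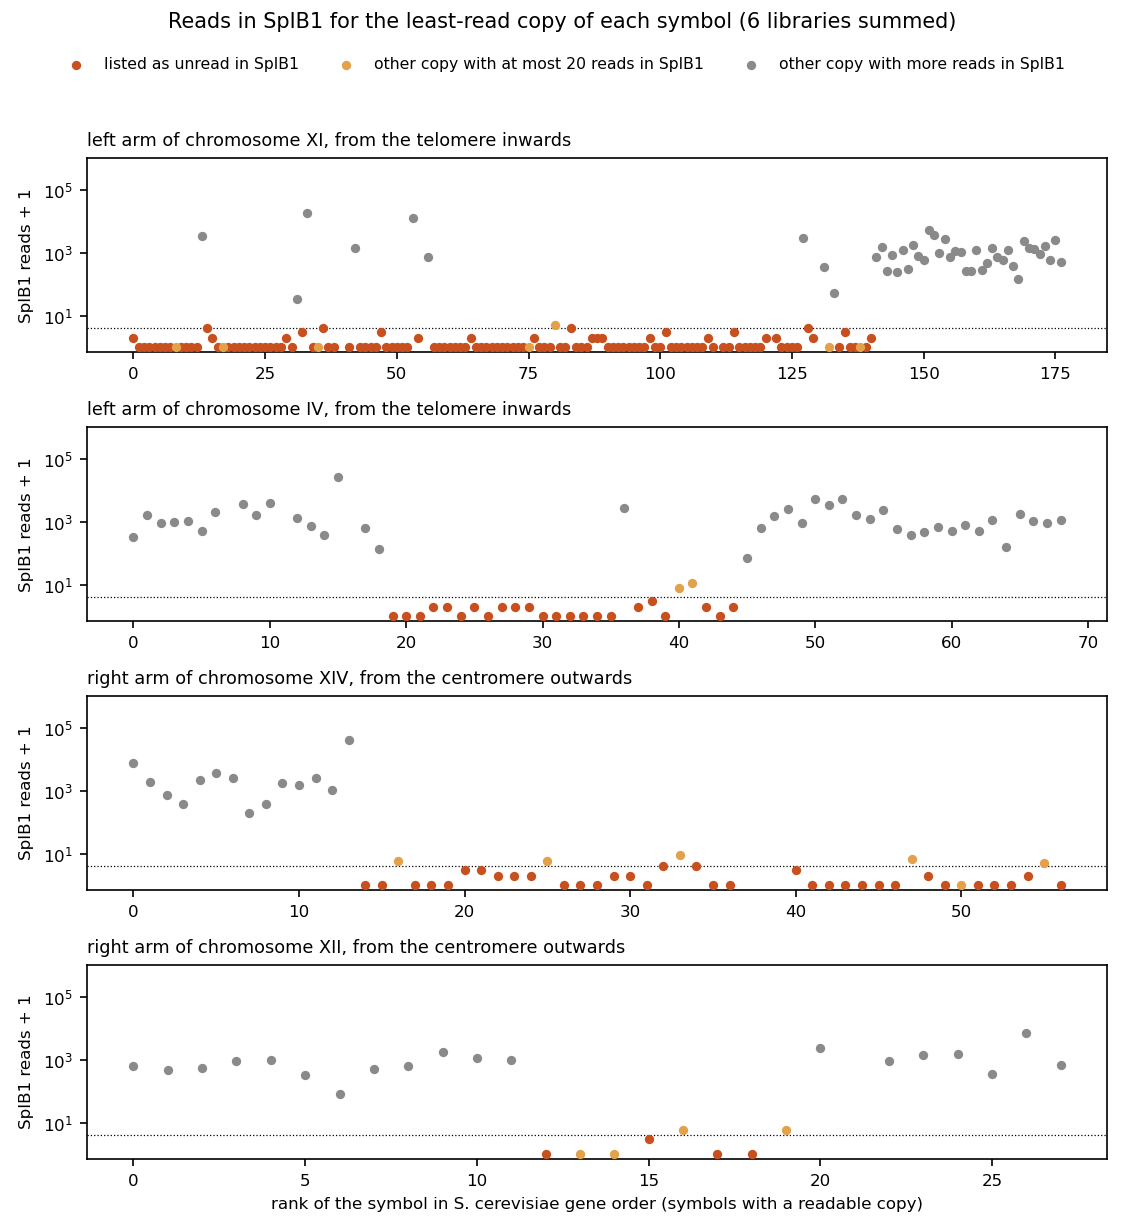
Reads in SpIB1 (6 libraries summed, plus 1, log scale) for the least-read copy of each symbol, against the rank of the symbol in Saccharomyces cerevisiae gene order on 4 chromosome arms; the dotted line marks 3 reads. Member copies form 4 runs, and 185 of 190 symbols with 2 copies inside the runs have a copy with few or no reads, which the choice of members and run ends largely fixes.

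The 5 exceptions on chromosome XI were FAS1, GPM1, FBA1, TMA19 and DEF1. These include some of the most abundant transcripts of yeast: FBA1 encodes aldolase, GPM1 phosphoglycerate mutase and FAS1 a subunit of fatty acid synthase. Their less-read copies had 113248 (FBA1_2), 56535 (GPM1_2), 6383 (TMA19_2), 4993 (DEF1_2) and 32582 (FAS1_2) reads in SpIB2, against 3044, 748, 358, 53 and 32 reads in the same order in SpIB1. Copies of a symbol can be near-identical and share reads, the treatment of such reads is not given in the sources used here, and its part in these counts was not tested. Read counts do not separate a copy that is missing from one that is present and not transcribed, and in bulk RNA fewer cells with a transcript and less RNA per cell cannot be told apart.

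For symbols with exactly 2 copies, the members of a run all carry the same number. On chromosomes XI, IV and XII all 141 members from symbols with 2 copies are the copy numbered 2, and on chromosome XIV all 28 are the copy numbered 1. Over all 171 symbols with 2 copies, 143 members carry number 2 and 28 carry number 1.

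For 6 symbols the unread copy is the only one in the tables, so that SpIB1 had next to no reads of the gene. These are BSC5, COS10, HSK3, MPP6, MRPL50 and PHR1. COS10, of a family of endosomal membrane proteins, had 176, 146 and 136 CPM in SpIB2 on day 5 and 130, 142 and 71.1 CPM on day 2, against 0 reads in SpIB1. PHR1, the DNA photolyase, had 99.2, 121 and 113 CPM in SpIB2 on day 5 and 105, 103 and 45.2 CPM on day 2, against 2 reads in SpIB1. MRPL50, a protein of the mitochondrial ribosome, had 30.2 to 85.9 CPM in SpIB2 and 0 reads in SpIB1. The tables list no other copy under these symbols, but a copy could stand under a locus tag.

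A further 10 members belong to 8 symbols with 3 or more copies. Of the 15 other copies of these symbols, 3 were higher and 6 lower in SpIB2 on day 5 and 2 were higher and 4 lower on day 2, beside 29.9%, 26.5%, 19.3% and 16.0% of all copies in the same order. Those of APL2, for example, passed on neither day. DSE4 and CIS3 are described after their values were seen. For DSE4, a glucanase of daughter-cell separation, 2 of 3 copies were unread in SpIB1, and the third, DSE4_3, was lower in SpIB2 (log2 fold change SpIB2 over SpIB1 -1.88 ± 0.30 SE on day 5 and -2.73 ± 0.30 on day 2, edgeR adjusted p = 0.00014 and 1.27e-05). For FRE4, a ferric reductase gene, FRE4_2 was the unread copy and stood at only 3.38 to 9.96 CPM in SpIB2. FRE4_1 had 15.8, 13.2 and 8.15 CPM in SpIB2 on day 5, against 654, 354 and 327 CPM in SpIB1, and the libraries did not overlap (log2 fold change -5.18 ± 0.54, edgeR adjusted p = 4.85e-06). For CIS3, a cell wall mannoprotein gene, CIS3_3 was unread in SpIB1, and CIS3_1 was also higher in SpIB2 (2.86 ± 0.51 on day 2, edgeR adjusted p = 0.000907).

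The partner copies were compared next. For the 171 symbols with exactly 2 copies, every partner was read in SpIB1, the lowest with 365 reads, so SpIB1 had reads of 1 copy of each of these genes. On day 5, 81 of the 171 partners were lower in SpIB2 (47.4%) and 18 were higher (edgeR quasi-likelihood test, Benjamini-Hochberg adjusted p under 0.05 over all copies), beside 26.5% of all 10659 tested copies called lower and 29.9% called higher. On day 2, 66 partners were lower (38.6%) and 7 higher, beside 16.0% and 19.3% of all copies. The median log2 fold change of the partners, SpIB2 over SpIB1, was -0.57 on day 5 and -0.52 on day 2, against 0.03 and 0.04 over all copies. Of the partners, 41 were lower on both days. The share of all copies lower on both days was not counted, so nothing is read from this count. CMC1_1, MDM35_1 and PMU1_1 were higher on both days, and VMA5_1 was called in opposite directions on the 2 days (MDM35_1 is named for this alone, after its values were seen). For PMU1_1 the difference was 0.61 on day 5, where the call ended without SpIB1 replicate 2 or 3 and the value was -0.15 with unscaled library totals. On day 2 it was 0.56, and the call ended without any 1 of the 3 SpIB1 libraries or without SpIB2 replicate 1, and with the replicate number as a block.

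Without a single library, the number of lower partners was 72 to 87 on day 5 and 54 to 63 on day 2. The few higher calls were less steady. On day 5 there were 9 in place of 18 without SpIB1 replicate 1. On day 2 there were 2 in place of 7 without SpIB1 replicate 1 or SpIB2 replicate 1, and 4 without SpIB1 replicate 2 or 3. Unscaled library totals move the median of all copies by -0.75 on day 5, to -0.72, and put the partners' median at -1.40 with 2 higher calls.

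The partners' difference varied between the runs. On chromosome XIV, 21 of 28 partners were lower in SpIB2 on day 5 and 25 on day 2, with medians of -1.73 and -1.85 and 0 higher. On chromosome IV, 14 and 12 of 22 were lower, with medians of -1.06 and -0.91, and on chromosome XII 3 and 4 of 4, with medians of -1.03 and -1.35. On chromosome XI, 41 of 115 partners were lower and 17 higher on day 5, and 24 were lower and 7 higher on day 2, with medians of -0.26 and -0.31. Over all copies, 26.5% were lower and 29.9% higher on day 5, and 16.0% were lower and 19.3% higher on day 2. The differences between runs were not tested.

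Genes of the same arms outside the runs, whose copies were all read, were set beside the partners. There, the copy with the partner's number had medians, on day 5 and day 2, of -0.46 and -0.98 on chromosome XIV (13 symbols), -0.49 and -0.53 on chromosome IV (34 symbols), -0.998 and -0.48 on chromosome XII (18 symbols) and 0.49 and 0.54 on chromosome XI (28 symbols). The copy with the member's number had medians of 0.71 and 0.50 on chromosome XIV and 0.62 and 0.31 on chromosome IV. On chromosome XII they were 0.04 and 0.39, and on chromosome XI 0.50 and 0.50, again on day 5 and day 2. The partners inside a run had a lower median than neighbouring copies with their number, on each of the 4 arms and both days. On chromosome XII on day 5 the gap was small. This difference between groups of genes was not tested, and a number need not mark the same parent inside and outside a run.

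**Figure D3:**
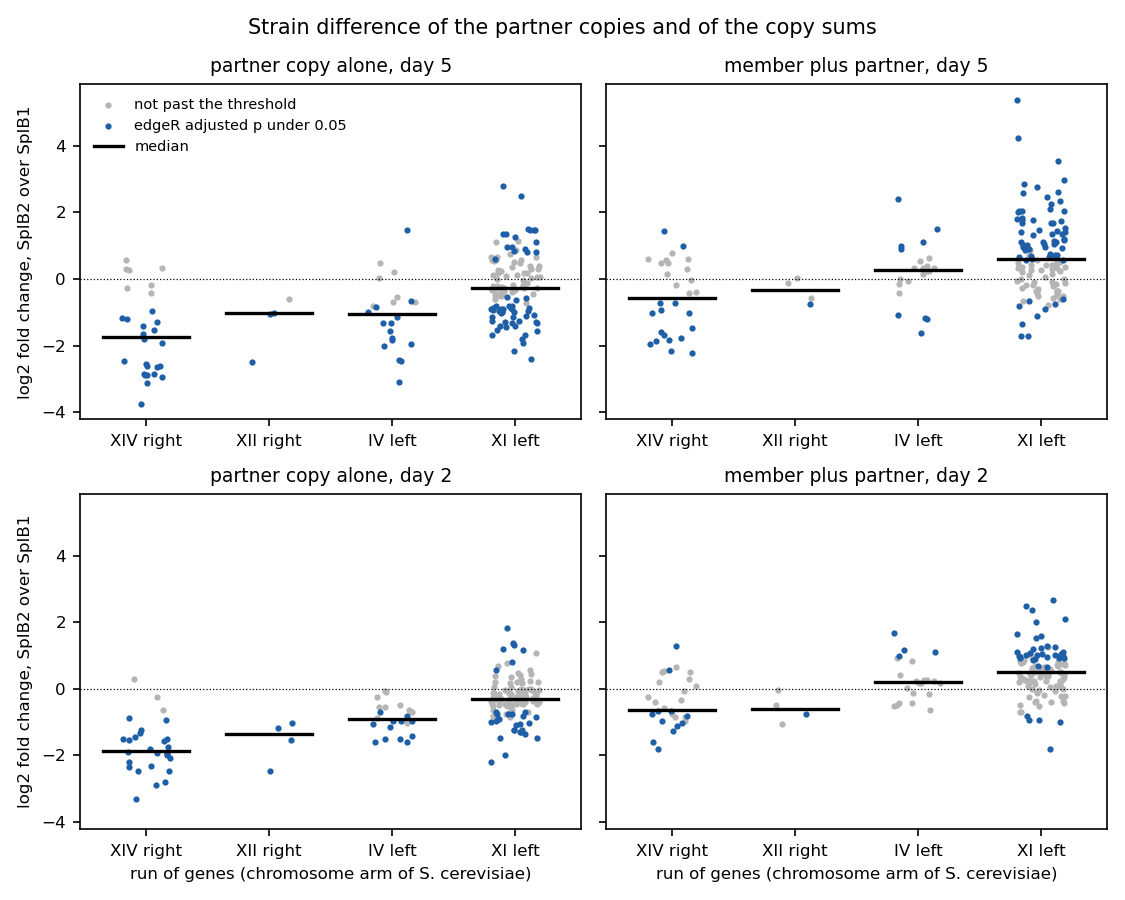
Log2 fold change, SpIB2 over SpIB1, of the partner copies (left) and of the sums of member and partner (right) on day 5 (top) and day 2 (bottom), by run; each point is a symbol, blue where the edgeR adjusted p is under 0.05, and the bar is the median. The partners of chromosome XIV sit lowest (medians -1.73 and -1.85), and the sums of chromosome XI have medians above 0 (0.61 and 0.50). In the sums the member's part is set by the choice.

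Partners named for their strain difference had to show no overlap on day 5 or day 2, so their lack of overlap is partly set by that choice. Over the 171 partners, 111 did not overlap on day 5 (88 of them lower in SpIB2) and 101 on day 2 (93 lower). How many of all copies did not overlap was not counted, so nothing is read from these counts. Most of the partners with the largest lower values came from chromosome XIV. NOG2 encodes a GTPase of 60S ribosome assembly. NOG2_2 had 12.7, 28.6 and 36.5 CPM in SpIB2 on day 5, against 584, 225 and 248 CPM in SpIB1. On day 2 it had 19.7, 14.7 and 43.8 CPM in SpIB2, against 317, 299 and 166 CPM in SpIB1. The strains did not overlap on either day (log2 fold change -3.75 ± 0.56 and -3.32 ± 0.55, edgeR adjusted p = 8.84e-05 and 0.000475), and the day 2 value was -3.92 without SpIB2 day 2 replicate 3.

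POP2 encodes a deadenylase of the Ccr4-Not complex. Its partner copy POP2_2 had 7.21, 8.44 and 8.15 CPM in SpIB2 on day 5, against 60.1, 57.1 and 68.0 CPM in SpIB1. On day 2 it had 10.3, 16.6 and 15.1 CPM in SpIB2, against 66.8, 61.1 and 65.0 CPM in SpIB1. The strains were far apart on both days (log2 fold change -2.95 ± 0.24 and -2.20 ± 0.22, edgeR adjusted p = 5.27e-07 and 5.19e-06). On day 5, ESF2_2, of a gene for processing of 18S ribosomal RNA, was lower in SpIB2 than in SpIB1 by 2.89 on the log2 scale. BUD17_2, of a gene similar to pyridoxal kinases, was lower by 3.13 in the same contrast.

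MVD1, the decarboxylase that ends the mevalonate part of sterol synthesis, showed both parts of the pattern. Its member copy MVD1_1 had 142, 158 and 98.8 CPM in SpIB2 on day 5 and 513, 704 and 1370 CPM on day 2, against 0 reads in SpIB1. Its partner MVD1_2 had 190, 111 and 106 CPM in SpIB2 on day 5, against 1337, 713 and 924 CPM in SpIB1. On day 2 MVD1_2 had 252, 378 and 1055 CPM in SpIB2, against 3304, 2850 and 2163 CPM in SpIB1, again without overlap (log2 fold change -2.87 ± 0.53 on day 5 and -2.30 ± 0.52 on day 2, edgeR adjusted p = 0.000475 and 0.00405), and the day 2 value was -3.14 without SpIB2 day 2 replicate 3. Summed over both copies, MVD1 was lower in SpIB2 on day 5 (-1.96 ± 0.45, edgeR adjusted p = 0.0025) and did not pass the test on day 2. Of the mevalonate copies other than MVD1_1, which include MVD1_2, 6 of 17 were lower and 1 higher in SpIB2 on day 5, beside 26.5% and 29.9% of all copies.

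Further partners with large differences were FPK1_2, UGA4_1 and ALG12_2. FPK1_2, of a kinase that activates lipid flippases, had 23.3, 41.5 and 26.5 CPM in SpIB2 on day 2, against 214, 208 and 250 CPM in SpIB1 (a log2 difference of -2.88 ± 0.47, edgeR adjusted p = 0.000426), and overlapped between the strains on day 5. UGA4_1, of the GABA permease gene on chromosome IV, had 6.18, 11.0 and 10.3 CPM in SpIB2 on day 5, against 98.6, 80.5 and 60.7 CPM in SpIB1 (-3.10 ± 0.39, edgeR adjusted p = 2.53e-05), and did not pass on day 2. ALG12_2, of a mannosyltransferase of N-glycan synthesis, was lower on both days (-2.86 ± 0.26 on day 5 and -1.50 ± 0.23 on day 2).

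Of the 18 partners that were higher in SpIB2 on day 5, 17 lay on chromosome XI, which holds 115 of the 171 partners. As a share of those 115 they are below the 29.9% of all copies called higher. HAP4 encodes the activating subunit of the HAP complex, which switches on respiratory genes. HAP4_1 had 4220, 1189 and 1065 CPM in SpIB2 on day 5, against 318, 260.3 and 353 CPM in SpIB1, while on day 2 it had 234, 294 and 452 CPM in SpIB2, against 349, 277 and 170.4 CPM in SpIB1. The strains were apart on day 5 (log2 fold change 2.80 ± 0.54, edgeR adjusted p = 0.000641; 1.85 without SpIB2 day 5 replicate 1, whose value is the highest) and overlapped on day 2.

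MRP8_1 had 1347, 717 and 979 CPM in SpIB2 on day 5, against 128, 219.9 and 194 CPM in SpIB1, again without overlap (2.49 ± 0.36, edgeR adjusted p = 7.22e-05). CMC1_1, of a gene for assembly of cytochrome c oxidase, had 57.3, 99.1 and 127 CPM in SpIB2 on day 5, against 23.0, 49.0 and 30.3 CPM in SpIB1 (1.47 ± 0.40, edgeR adjusted p = 0.00629), and was also higher on day 2 (1.83 ± 0.41). NNR2_1, YET1_1 and ASK1_1 were higher on day 5 by 1.47 to 1.49 on the log2 scale. With unscaled library totals CMC1_1, NNR2_1, YET1_1 and ASK1_1 were no longer called on day 5.

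Partners of the members with the most reads gave further values. APE1_1 had 201.2, 184.9 and 239 CPM in SpIB2 on day 5, against 376, 672 and 758 CPM in SpIB1 (-1.53 ± 0.45, edgeR adjusted p = 0.0101), without overlap. MNR2_1, of a vacuolar magnesium transporter gene, had 916, 515 and 433 CPM in SpIB2 on day 5, against 233, 264 and 274 CPM in SpIB1 (1.27 ± 0.37, edgeR adjusted p = 0.00954), also without overlap, and lost the call with unscaled totals. SDH1_1 and RTN2_1 were called higher on day 5 (1.10 ± 0.41 and 1.48 ± 0.53), and without SpIB2 day 5 replicate 1 the calls ended, at 0.43 and 0.84. Both calls also ended without SpIB1 day 5 replicate 1 or 2. On day 2, SNF3_1, SRX1_1 and MBR1_1 were lower in SpIB2 (-1.51 ± 0.32, -1.36 ± 0.31 and -1.29 ± 0.24), and the strains did not overlap in any of them.

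VMA5_1 changed direction between the days. VMA5 encodes a subunit of the vacuolar proton pump. VMA5_1 had 38.5, 66.0 and 77.3 CPM in SpIB2 on day 5, against 114, 149 and 119 CPM in SpIB1 (a log2 difference of -1.07 ± 0.30, edgeR adjusted p = 0.00725). On day 2 it had 252, 249.8 and 208 CPM in SpIB2, against 89.2, 103 and 124 CPM in SpIB1 (1.17 ± 0.30, edgeR adjusted p = 0.00802).

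Adding the member to its partner gives the reads of the gene from both copies. The member's part of this strain contrast is set by the choice, so these counts support nothing on their own. On day 5, 64 of 171 sums were higher and 28 lower in SpIB2, beside 28.4% and 26.7% of all 6198 symbols. On day 2, 40 were higher and 16 lower, beside 14.9% and 13.1%. The median log2 fold changes were 0.38 and 0.40. Of the 81 partners that were lower on day 5, the sum was not called for 46, lower for 28 and higher for 7, and of the 66 on day 2 it was not called for 46, lower for 16 and higher for 4.

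The day 2 count of higher sums rests on single libraries: it was 16 without SpIB1 replicate 1, 21 without SpIB1 replicate 2, 24 without SpIB2 replicate 1, and 69 without both libraries that stood apart, where 28 were lower (chosen after seeing the data). The 16 lower sums of day 2 became 10 without SpIB1 replicate 1. With unscaled library totals the day 5 counts turned to 27 higher and 56 lower, with a median of -0.32 beside -0.66 over all symbols.

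By run, the sums went different ways, but the member's part of each sum is set by the choice. Over all symbols, 28.4% were higher and 26.7% lower on day 5, and 14.9% and 13.1% on day 2. Differences of the sums between runs were not tested. On chromosome XI, 57 of 115 sums were higher and 9 lower on day 5, with a median of 0.61, and 32 were higher and 5 lower on day 2. On chromosome XIV, 14 of 28 were lower and 2 higher on day 5, with a median of -0.57, and 10 were lower and 2 higher on day 2. With unscaled totals the day 5 counts were 25 higher and 31 lower on chromosome XI and 0 higher and 15 lower on chromosome XIV.

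Pooled over the 171 pairs, members and partners contributed about equally to the reads in SpIB2. Members had to reach 5 CPM in SpIB2 and partners did not, so this balance is partly set by the choice. The members' share of the reads of their pairs was 54.1, 47.9 and 46.5% in the day 5 libraries and 44.2, 46.5 and 49.4% in the day 2 libraries. In SpIB1 that share was at most 0.00944%. By run, the share in the SpIB2 libraries was 31.9 to 59.7% on chromosome XIV and 41.4 to 56.5% on chromosome XI. Single pairs could lie far from equal, as RCN1 below.

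The change of the member copies between days within SpIB2 was not used by the choice. Of the 225 members, 45 were higher on day 5 than on day 2 (20%) and 31 were lower (13.8%), beside 21.8% and 23.5% of all copies. The shares are below those of all copies, and the members' median log2 fold change was 0.09 (all copies -0.10). Leaving out single libraries gave 37 to 48 higher and 28 to 32 lower members. The partners changed likewise in SpIB2, with 37 higher and 33 lower of 171, and the sums with 38 higher and 34 lower, beside 22.2% and 24.5% of all symbols.

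GRS66_004568, which has no symbol in the tables, took more SpIB2 reads than any other member. It had 4853, 8249 and 8108 CPM in SpIB2 on day 5 and 1616.5, 844 and 294 CPM on day 2, against 0 reads in SpIB1. The day 5 libraries of SpIB2 all exceed its day 2 libraries (log2 fold change 2.95 ± 0.62, edgeR adjusted p = 0.00416; 3.63 without SpIB2 day 2 replicate 1). GRS66_008865, another tag-only member, had 349, 771 and 509 CPM on day 5 and 2416, 1002 and 249 CPM on day 2 of SpIB2, which overlap, and did not pass the test.

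HAP4_2 took the most SpIB2 reads of the members with a symbol. It had 8989, 1738 and 1747 CPM in SpIB2 on day 5 and 198, 279.6 and 434 CPM on day 2, against 0 reads in SpIB1. Every day 5 library exceeds every day 2 library (3.77 ± 0.73, edgeR adjusted p = 0.00277), and the value was 2.50 without SpIB2 day 5 replicate 1. Summed over both copies, HAP4 was higher in SpIB2 than in SpIB1 on day 5 (4.25 ± 0.62, edgeR adjusted p = 0.000117; 3.16 without SpIB2 day 5 replicate 1), a contrast in which the member's part is set by the choice. Among the copies of the HAP complex genes and HAP1 other than HAP4_2, 5 of 8 were higher, HAP4_1 among them, and 1 lower in SpIB2 on day 5, beside 29.9% and 26.5% of all copies.

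The largest increases were in RCN1_2 and SLD2_2. RCN1 encodes a regulator of calcineurin, the calcium-activated phosphatase. RCN1_2 had 1242, 793 and 838 CPM in SpIB2 on day 5 and 25.8, 46.6 and 22.8 CPM on day 2 (4.92 ± 0.45, edgeR adjusted p = 5.91e-05). SLD2, needed to start DNA replication, had 476, 136 and 65.4 CPM of SLD2_2 on day 5 and 5.59, 5.06 and 11.7 CPM on day 2 (4.91 ± 0.73, edgeR adjusted p = 0.000709). In both members the days did not overlap, and for SLD2_2 the value was 3.73 without SpIB2 day 5 replicate 1, the highest library.

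SRX1_2, MBR1_2 and the tag-only GRS66_008898 also rose. SRX1 encodes sulfiredoxin, which restores oxidized peroxiredoxin, and SRX1_2 had 243, 62.3 and 62.5 CPM in SpIB2 on day 5 and 3.43, 8.03 and 4.31 CPM on day 2 (4.54 ± 0.58, edgeR adjusted p = 0.000187). MBR1_2, of a gene linked to mitochondrial function, had 466, 127 and 151 CPM on day 5 and 10.5, 22.5 and 17.7 CPM on day 2 (3.87 ± 0.55, edgeR adjusted p = 0.000559). Without SpIB2 day 5 replicate 1, the highest library for both, the values were 3.56 for SRX1_2 and 3.03 for MBR1_2. GRS66_008898 rose by 4.52 ± 0.76 (edgeR adjusted p = 0.00143), and by 3.05 without that library.

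UGA4_2 led the members that were lower on day 5 in SpIB2. It had 18.5, 20.3 and 14.3 CPM on day 5 and 164, 195 and 510.0 CPM on day 2 (-4.03 ± 0.47, edgeR adjusted p = 0.000105; -3.34 without SpIB2 day 2 replicate 3). MVD1_1, with the values above, fell as well (-2.70 ± 0.44, edgeR adjusted p = 0.0012). Among the other copies of mevalonate genes, which include MVD1_2, 10 of 17 were lower on day 5 in SpIB2 and 0 higher, beside 23.5% and 21.8% of all copies. LYS9_1, of a lysine synthesis gene, had 13.05, 28.4 and 34.1 CPM on day 5 and 162, 81.3 and 82.2 CPM on day 2 (-2.09 ± 0.40, edgeR adjusted p = 0.00257). ALG12_1, PMU1_2 and GRS66_004554 fell by 2.00 (2.65 without SpIB2 day 5 replicate 2), 1.92 and 2.35 on the log2 scale, and in each of the 6 members the days did not overlap.

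Members of mitochondrial metabolism gave less steady calls. SDH1_2, of the flavoprotein subunit of succinate dehydrogenase, had 1788, 404 and 379 CPM in SpIB2 on day 5 and 169.8, 286 and 224 CPM on day 2 (1.92 ± 0.60, edgeR adjusted p = 0.025), but the value was 0.78 without SpIB2 day 5 replicate 1, and the call ended without that library or without SpIB2 day 2 replicate 1 or 3. MDH1_2, of the mitochondrial malate dehydrogenase, had 885, 355 and 291 CPM on day 5 and 166, 234 and 136 CPM on day 2 (1.51 ± 0.46, edgeR adjusted p = 0.022; 0.85 without SpIB2 day 5 replicate 1), and the call ended without SpIB2 day 2 replicate 1 or 3 (0.70 without both libraries that stood apart). SDH3_2 had 69.1 to 99.5 CPM on day 5 and 46.2 to 102 CPM on day 2 and did not pass the test. Of the 15 other copies of the succinate dehydrogenase list, which include the partners SDH1_1 and SDH3_1, 8 were higher and 0 lower on day 5 in SpIB2, beside 21.8% and 23.5% of all copies.

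Several abundant members gave no steady day change. PIR3_2, of a cell wall protein gene, had 1459, 931 and 825 CPM in SpIB2 on day 5 and 791, 1429 and 497 CPM on day 2. APE1_2, of the vacuolar aminopeptidase I, had 822, 542 and 575 CPM on day 5 and 954, 1409 and 747 CPM on day 2. The days overlap in both, and neither passed the test, nor did MCR1_2, MNR2_2, MIA40_2 or VMA5_2. APE2_2, of another aminopeptidase, was higher on day 5 (1.75 ± 0.44, edgeR adjusted p = 0.0105; 1.11 without both libraries that stood apart). RTN2_2 (a reticulon of the endoplasmic reticulum) and SNF3_2 (the sensor of low glucose) were called higher, by 1.27 and 1.15, and each call ended without any one of SpIB2 day 2 replicates 1, 2 and 3 and SpIB2 day 5 replicate 1, with values of 0.63 and 0.32 without the last.

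**Figure D4:**
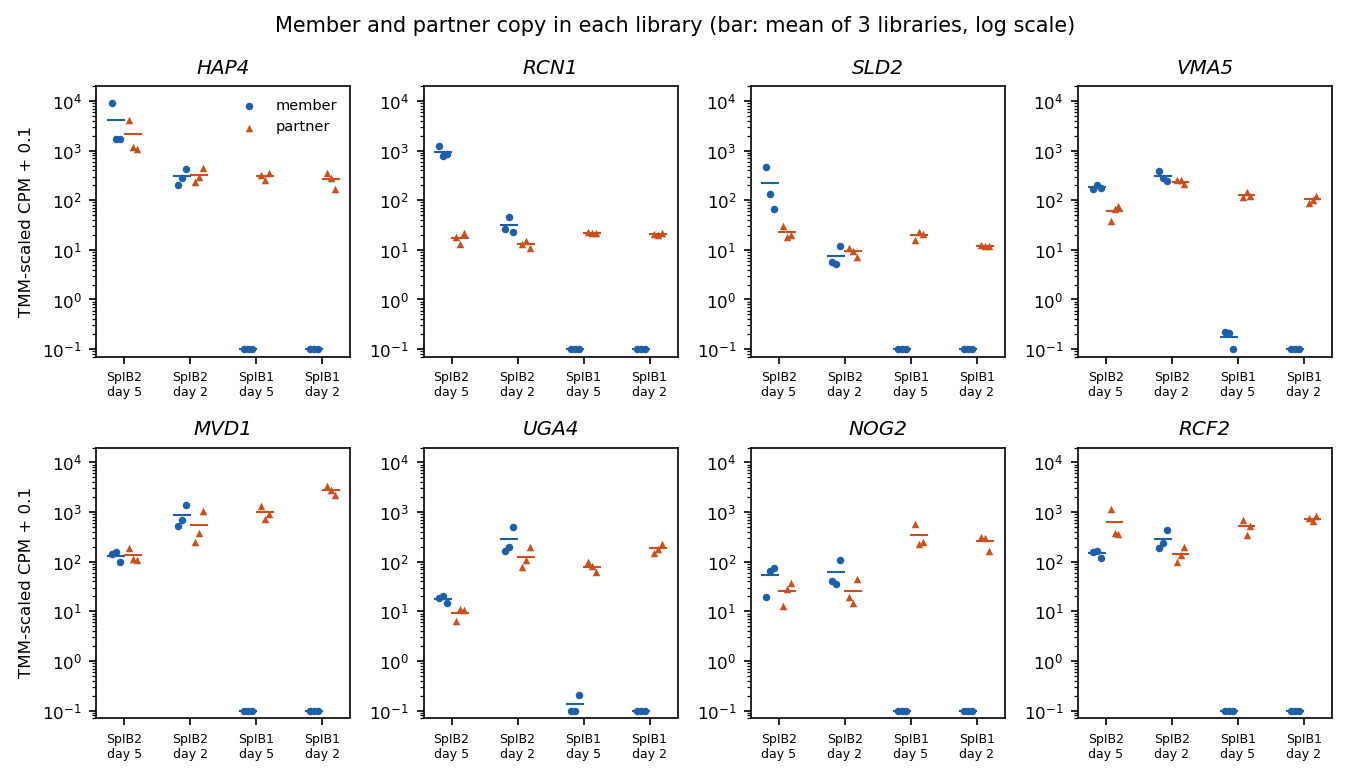
TMM-scaled CPM plus 0.1 (log scale) of the member copy (circles) and the partner copy (triangles) of 8 symbols in each library, with SpIB2 left of SpIB1 and the mean of 3 libraries as a bar. In SpIB1 the members have 0 to 2 reads over 6 libraries while the partners are read, as for RCN1_1 with 19.4 to 22.7 CPM.

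In SpIB1, where only the partners are read, the number called between the days depended on the fit. In the fit of all 12 libraries, RAD27_1 was higher and MCD4_1 lower on day 5 among the 171 partners, beside 0.863% and 2.61% of all copies. RAD27_1 had 40.5, 59.5 and 41.3 CPM on day 5 and 17.7, 21.7 and 21.1 CPM on day 2 in SpIB1, and MCD4_1 had 66.4, 68.5 and 65.5 CPM on day 5 and 128, 138 and 123 CPM on day 2, each without overlap (named after their values were seen, as are ASH1, MCD4 and RAD27 below). Without any 1 of the 6 SpIB1 libraries 0 partners were called lower, and 0 were called higher except without SpIB1 day 5 replicate 1, which left 1. With the replicate number as a block 0 partners and 0 sums were called in either direction. At an unadjusted p under 0.05 there were 28 partners, 13 higher and 15 lower, beside 8.1% and 10.4% of all copies. A fit of the 6 SpIB1 libraries alone, which does not share its estimate of spread with SpIB2, called 17 higher and 15 lower, beside 10.4% and 11.0% of all copies in that fit. Of the sums, RAD27 was higher and ASH1, MCD4 and PIR3 lower, beside 0.92% and 3.02% of all symbols, and 0 sums were called without any 1 of the 6 SpIB1 libraries.

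The difference of the day change between the strains was tested directly for the partners. It passed for 34 of 171 partners in edgeR, with the change in SpIB2 the more positive for 19 and the more negative for 15, beside 14.6% and 11.9% of all copies.

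In SpIB2 the copies of a pair did not always move together. The ratio of member to partner differed between the days for 49 of the 171 pairs (28.7%), 33 with a ratio higher on day 5 and 16 with a lower one (edgeR quasi-likelihood test of copy by day, adjusted over all pairs), beside 22.0% of the 3927 pairs in the tables. Leaving out a library of day 2 lowered the counts, to 17 higher pairs without replicate 1, 19 higher and 9 lower without replicate 2 and 21 higher without replicate 3.

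RCN1 had the largest shift of ratio. While RCN1_2 rose as given above, its partner RCN1_1 had 17.9, 12.99 and 21.4 CPM in SpIB2 on day 5 and 13.2, 14.8 and 10.8 CPM on day 2, which overlap, and the ratio moved by 4.53 ± 0.32 on the log2 scale (edgeR adjusted p = 6.96e-05). AAT1, the mitochondrial aspartate aminotransferase, had copies that moved apart. AAT1_2 had 35.7, 54.8 and 42.7 CPM on day 5 and 16.8, 9.95 and 6.46 CPM on day 2, while its partner AAT1_1 had 5.15, 10.2 and 11.0 CPM on day 5 and 30.3, 17.8 and 12.9 CPM on day 2. Neither copy overlapped between the days, and the ratio moved by 3.24 ± 0.31 (edgeR adjusted p = 0.000302). The ratio of SLD2 (3.22 ± 0.63), MBR1 (2.78 ± 0.48) and SRX1 (2.41 ± 0.59) also shifted towards the member. The value for SLD2 was 3.82 without SpIB2 day 2 replicate 3, and those for MBR1 and SRX1 were 2.17 and 1.79 without SpIB2 day 5 replicate 1 and 2.07 and 1.38 without both libraries that stood apart. The SRX1 call ended without SpIB2 day 2 replicate 3.

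RCF2, a factor of the respiratory supercomplex, shifted most towards the partner. RCF2_1, the member, had 156, 165 and 119.98 CPM in SpIB2 on day 5 and 186, 235 and 442 CPM on day 2. Its partner RCF2_2 had 1136, 372 and 356 CPM on day 5 and 100.3, 138 and 197 CPM on day 2. Neither copy overlapped between the days. The partner's change passed the test (2.10 ± 0.48, edgeR adjusted p = 0.00367), the member's did not (-0.97 ± 0.36, edgeR adjusted p = 0.0506), and the ratio moved by -2.80 ± 0.40 (edgeR adjusted p = 0.00202; -2.20 without both libraries that stood apart).

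The ratio of GLE1, of mRNA export, moved by -2.10 ± 0.41 (-1.49 without both libraries that stood apart), that of SPE1, ornithine decarboxylase, by -2.06 ± 0.39, that of COQ2, of ubiquinone synthesis, by -1.91 ± 0.39 and that of PMU1 by -1.90 ± 0.36, each with an edgeR adjusted p under 0.05. For UGA4 (-0.19 ± 0.32) and ALG12 (-0.35 ± 0.34) the ratio did not pass the test, and both copies fell in SpIB2.

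**Figure D5:**
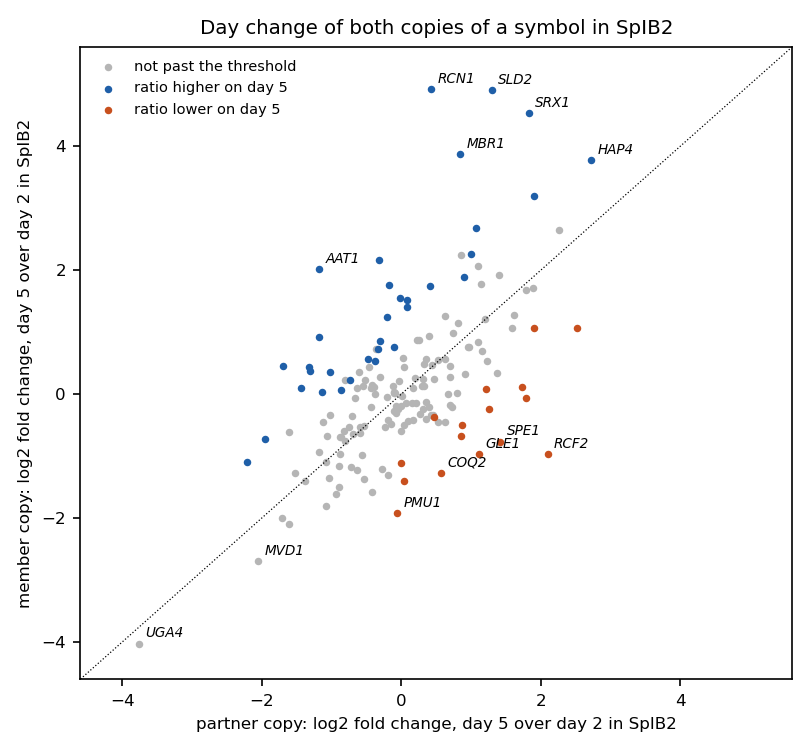
Log2 fold change, day 5 over day 2 in SpIB2, of the member copy against that of the partner copy for 171 pairs; the dotted line marks equal change, and colours mark pairs whose ratio passed the test. The 33 pairs above the line in blue include RCN1, AAT1 and SLD2, and the 16 below it in orange include RCF2, GLE1 and SPE1.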

How the data were processed

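Polyadenylated RNA of 12 libraries was sequenced, 3 for each strain and day. The deposited values are raw read counts per gene copy, made by the authors. The submitters' processing notes name edgeR 3.34.0, HTSeq 0.11.1, STAR 2.7.3a and Trimmomatic 0.38, without roles. No source used here gives the genome build or the settings for strand and shared reads.

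Of 11312 listed copies, 35 with a cell that was not a number were left out. The members, gene lists and tests were chosen with earlier results of these data known. Counts were fitted with edgeR 4.0.16 in R 4.3.3 (TMM, filterByExpr, robust quasi-likelihood, 1 coefficient per group over 12 libraries, 8 residual degrees of freedom), and p-values were Benjamini-Hochberg adjusted over all copies or symbols and called under 0.05. Ratios were tested by a copy-by-day term in the 6 SpIB2 libraries, for symbols with at least 10 reads per copy. Fold changes are log2 with standard errors. The steps were tested on simulated data. Library totals of 5133175 to 7922547 reads limit precision, and intervals or limits from counts cover counting error only.

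Genes named are the 15 members with the most reads and their partners, members on a list, up to 6 members each way by day change, up to 8 partners each way by strain difference (at least 10 CPM, no overlap), up to 5 ratios each way, and copies at the thresholds. DSE4, CIS3, APL2, MDM35, VMA1, UIP3, the single-copy symbols and the exceptions inside the runs were named after their values were seen. Alternatives were library totals, median-ratio factors, no filter, DESeq2 1.42.0, limma 3.58.1, a replicate block, fits of 6 libraries, other thresholds and leaving out libraries. The main fits did not pair samples by replicate number, and whether the numbers mark pairs was not settled. Gene order came from general knowledge of Saccharomyces cerevisiae.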

Additional observations from a re-analysis of the deposited data

Results flagged for a closer look

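For 14 partner copies that are named above or belong to a named pair, the change from day 2 to day 5 differed between the strains by an edgeR test of the difference itself, adjusted over all copies. The difference of the day changes, SpIB2 minus SpIB1 on the log2 scale, was 2.50 for HAP4_1 (adjusted p = 0.0238), with a day change of 2.73 in SpIB2 and 0.23 in SpIB1. It was 2.51 for MRP8_1 (adjusted p = 0.00438), 2.50 for RTN2_1 (0.0268), 2.27 for ASK1_1 (0.00486), 2.46 for FPK1_2 (0.0138), 2.62 for RCF2_2 (0.0134), 2.04 for PIR3_1 (0.04), 2.02 for MNR2_1 (0.0147), 1.94 for SRX1_1 (0.00774) and 1.42 for GLE1_1 (0.0183). For the remaining 4 it was negative: -2.55 for UGA4_1 (adjusted p = 0.00521), -2.24 for VMA5_1 (0.0033), -1.44 for LYS9_2 (0.0495) and -1.37 for ALG12_2 (0.012). In PIR3_1 the larger change was in SpIB1, with 0.31 in SpIB2 and -1.73 in SpIB1. Among all 171 partners, 19 passed with the more positive change in SpIB2 and 15 with the more negative, beside 14.6% and 11.9% of all copies. Several of the 14 were named for a large strain difference on day 5 or day 2. This test was not repeated under the alternatives or without single libraries. The cause of these differences was not tested.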

How the results depend on the processing

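Of 1166 values recomputed for 92 results, 1049 kept their direction and call, 116 were weaker and 1 reversed, PMU1_1 on day 5, at -0.15 with library totals. At least 1 weaker value was found for 30 called results. Counts below are higher then lower. With library totals, which shift the median of all copies by -0.75 (day 5 strain contrast), -0.44 (day contrast in SpIB2) and 0.27 (in SpIB1), higher partners numbered 2 on day 5 and 3 on day 2, partners by day 16 and 50 in SpIB2 and 3 and 0 in SpIB1, sums on day 5 27 and 56, sums by day 24 higher in SpIB2 and 3 and 0 in SpIB1, and members 28 higher by day. Same-numbered libraries of 2 groups had correlations of -0.55 to 0.46 (0.02 to 0.46 between the days of SpIB1). These do not settle whether the numbers mark pairs. With the replicate block, 4 partners were higher on day 2, partners and sums by day in SpIB1 were 0 and 0, and limma ratios 15 and 10. With only the 6 libraries compared, partners by day were 20 and 14 in SpIB2 and 17 and 15 in SpIB1, sums 23 and 17 and 20 and 15, and members 19 lower. DESeq2 gave 9 and 8 partners and 10 and 12 sums by day in SpIB1, and median-ratio factors 1 lower sum there. Without both libraries that stood apart, chosen after seeing the data, sums on day 2 were 69 and 28. A floor of 20 CPM left 149 members.

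Leaving out 1 library gave 224 to 231 members, members by day 37 to 48 and 28 to 32, ratios 17 to 26 and 9 to 15, partners on day 5 9 to 20 and 72 to 87 and on day 2 2 to 8 and 54 to 63, partners by day 27 to 40 and 24 to 33 in SpIB2 and 0 to 1 and 0 to 0 in SpIB1, sums on day 5 49 to 67 and 24 to 31 and on day 2 16 to 43 and 10 to 15, and sums by day 34 to 39 and 27 to 35 in SpIB2 and 0 to 0 both ways in SpIB1. The causes were not tested.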
